A study of Mus musculus with 13 samples.

Results

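Type IV collagen is the collagen of basement membranes, and its 6 chains are encoded by Col4a1, Col4a2, Col4a3, Col4a4, Col4a5 and Col4a6. These 6 genes were read out of the 49315 genes counted in mouse back skin at P4 (postnatal day 4), and all 6 had enough counts to be analysed. They were chosen by family membership and ordered as 3 head-to-head pairs, with the WT and DKO counts of these same libraries already known to be lower for Col4a3 and Col4a4 in DKO. Their difference between WT and DKO is therefore given as a description, with no test.

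Total RNA of full-thickness back skin, which holds epidermis, dermis and everything beneath them in the sample, was sequenced from 3 mice labelled WT and 3 mice labelled DKO. The DKO mice were K14Cre+Kctd1fl/flKctd15fl/fl, so that the Cre recombinase was driven by the promoter of keratin 14 and acted in keratinocytes, while dermal, vascular and muscle cells kept both genes. The WT mice were littermates, and no strain, sex or Cre status is given for them in the labels. Loss of Kctd1 and Kctd15 could not be checked here at gene level, because only 1 exon of each gene is floxed. The paper reports that RNA-Seq showed removal of the floxed exons in epidermal sheets of single knockouts, and also in K14Cre+Kctd1fl/flKctd15fl/fl mice. It does not name the P4 skin libraries there. The normalized counts of Kctd1 were 443, 410 and 442 in WT and 506, 985 and 735 in the libraries labelled DKO. Those of Kctd15 were 736, 737 and 763 in WT and 1131, 1509 and 1325 in the libraries labelled DKO. Both genes thus had higher counts in every library labelled DKO than in any WT library, and every direction below rests on the labels.

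The 6 libraries held 11263863 to 17643043 counts on genes, which puts a count of 3, taken as the lowest that can be told from 0, at 0.17 to 0.266 CPM (counts scaled to library size). These limits cover counting error only. In the title labels, 1 number is shared by WT replicate 3 and DKO replicate 1, and another by the remaining 4 libraries, and the labels do not say what it marks. Xist, which is transcribed from the inactive X chromosome, had 56783 and 56894 normalized counts in WT replicate 1 and DKO replicate 3 and 9.93 to 122 in the other 4 libraries. The Y-linked gene Ddx3y had 8.15 and 11 in those 2 libraries and 761 to 1202 in the other 4. Eif2s3y, Kdm5d and Uty, also Y-linked, were split in the same way. By these genes, each group held 1 library with the pattern of a female, and the others had that of a male. No pair of libraries held identical values.

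Collagen IV chains associate in threes inside the endoplasmic reticulum and are secreted as the trimers α1α1α2, α3α4α5 and α5α5α6, which join outside the cell into a sheet-like network bound to laminin. The α1α1α2 trimer is present in nearly all basement membranes, including those of blood vessels, muscle fibres and the epidermis. The α3α4α5 trimer is best known from the kidney glomerulus, where its loss causes Alport syndrome, and α5α5α6 from the epidermis and smooth muscle. Each pair of genes is transcribed from neighbouring starts on opposite strands.

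In the annotation of the build used by the authors (GRCm38), Col4a1 (ENSMUSG00000031502) lies on chromosome 8 from 11198423 to 11312826 on the minus strand and Col4a2 (ENSMUSG00000031503) from 11312805 to 11449287 on the plus strand. Col4a4 (ENSMUSG00000067158) lies on chromosome 1 from 82448423 to 82586849 on the minus strand, and Col4a3 (ENSMUSG00000079465) from 82586921 to 82722059 on the plus strand. Col4a6 (ENSMUSG00000031273) lies on chromosome X from 141165403 to 141474076 on the minus strand, and Col4a5 (ENSMUSG00000031274) from 141475385 to 141689234 on the plus strand. The first exons of Col4a1 and Col4a2 share 22 bases, those of Col4a4 and Col4a3 stand 71 bases apart, and those of Col4a6 and Col4a5 are 1308 bases apart. All 6 are long genes of many exons, with 46 to 54 separate exon blocks and counted lengths of 6619 to 10612 bases.

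The bases at or next to these starts are shown because they lie where the members of a pair face each other. They come from RefSeq (GRCm38.p6), read 5′ to 3′. Capitals mark a match to a GC box (GGGCGG) or a CCAAT box (CCAAT) on either strand. The first lies within both first exons (chr8:11312805-11312826, plus strand), the second between the first exons (chr1:82586850-82586920, minus strand, the strand of Col4a4), and the last ones upstream of the X-linked genes, ending 15 bases before the start given above for Col4a5 and 19 bases before that for Col4a6 (chrX:141475169-141475369, plus strand, and chrX:141474096-141474326, minus strand). The second, labelled Col4a4 to Col4a3, is thus printed from the side of Col4a3, and its last base lies beside the start of Col4a4.
Col4a1 and Col4a2 shared start: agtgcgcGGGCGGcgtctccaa
Col4a4 to Col4a3: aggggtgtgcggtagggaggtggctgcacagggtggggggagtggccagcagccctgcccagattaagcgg
upstream of Col4a5: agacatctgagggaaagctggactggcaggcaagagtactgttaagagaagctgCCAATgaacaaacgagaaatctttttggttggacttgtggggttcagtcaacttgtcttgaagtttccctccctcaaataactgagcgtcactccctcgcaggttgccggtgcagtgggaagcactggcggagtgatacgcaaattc
upstream of Col4a6: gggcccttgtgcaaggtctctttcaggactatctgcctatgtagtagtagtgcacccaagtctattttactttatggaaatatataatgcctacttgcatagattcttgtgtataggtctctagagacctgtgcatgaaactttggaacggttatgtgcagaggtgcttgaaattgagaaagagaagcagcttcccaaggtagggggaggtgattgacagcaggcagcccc

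RefSeq start windows, of 250 bases before to 50 bases after a start, were given for 5 of the 6 genes (not for Col4a3). The windows of Col4a1 and Col4a2, which overlap each other, were 74% and 73.7% G or C, that of Col4a4 63.3%, and those of Col4a5 and Col4a6 52.7% and 48.3%, against a median of 52.7% over 32851 windows of the same length. The palindrome GCCNNNGGC, to which AP-2 factors bind, was present in the windows of Col4a1 and Col4a2 and in 16.6% of all windows, and it was not found in those of Col4a4, Col4a5 or Col4a6. The GC box was in 4 of the 5 windows, those of all but Col4a4, and in 35.7% of all windows. CCAAT was in those of Col4a1, Col4a2 and Col4a5 and in 37.4% of all, and TATAAA in none of the 5 and in 13.6% of all. The Col4a4 window held none of these 4 motifs, each searched on both strands. A match of letters is a description of the window and not of binding.

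In WT skin the levels of the 6 chains were compared as TPM, which divides the counts by gene length and then scales every library to the same total. Col4a1 stood at 337 ± 15.7 TPM (SD, n = 3) and Col4a2 at 218 ± 9.51, above 98.7% and 97.8% of the 20168 genes tested. Col4a5 followed at 19.2 ± 1.65 TPM, a level 11.3 times below Col4a2. Col4a4 at 11.6 ± 1.2 TPM and Col4a6 at 11.5 ± 1.2 TPM were next and could not be ordered, since their WT libraries overlapped. Col4a3 was lowest at 2.69 ± 0.14 TPM, 4.27 times below Col4a6 and above 15.1% of the genes tested. Every other neighbouring pair in this order was separated in all 3 WT libraries.

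Summed over both members, Col4a1 and Col4a2 made up 92.5 ± 0.401% of the family's TPM in WT, Col4a5 and Col4a6 made up 5.12 ± 0.185%, and Col4a3 and Col4a4 made up 2.38 ± 0.233% (SD, n = 3). Members of a pair were not equal in level. The ratio of Col4a1 to Col4a2 in TPM was 1.52 to 1.59 over the WT libraries, that of Col4a5 to Col4a6 was 1.45 to 1.95, and that of Col4a3 to Col4a4 was 0.215 to 0.247. Col4a3 was thus the scarcest of the 3 mRNAs of the α3α4α5 trimer in every WT library.

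**Figure D1:**
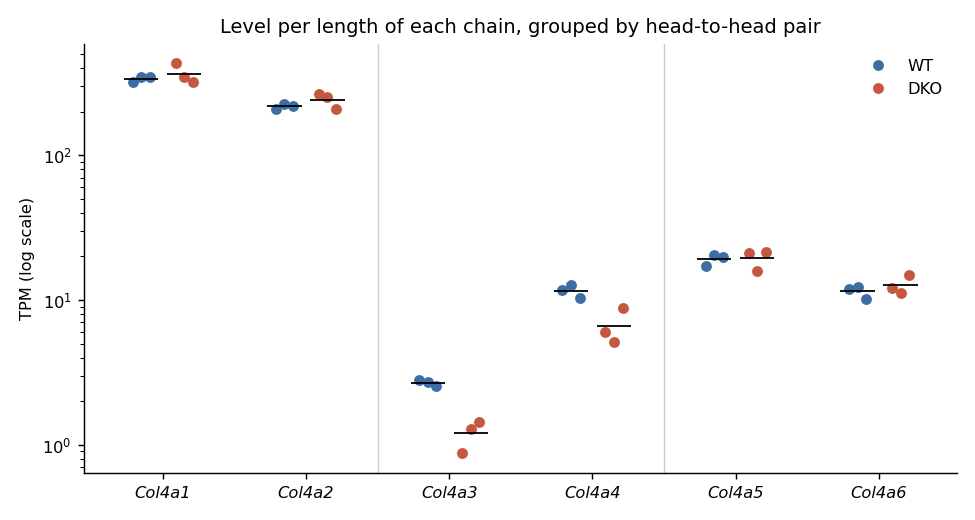
TPM of each chain on a log axis, with 1 point per library, blue for WT and red for DKO, a black line at each group mean, and grey lines between the head-to-head pairs. Col4a1 and Col4a2 sit at 208 TPM or more in every library, and Col4a3 at 2.81 TPM or less.

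Col4a3 and Col4a4 were lower in DKO than in WT, and the other 4 chains overlapped between the groups. Normalized counts of Col4a3, whose chain carries the Goodpasture antigen, were 142, 132 and 126 in WT and 39.4, 73.9 and 69.7 in DKO. All 3 DKO libraries lay below the lowest WT library, and DKO replicate 1 was the lowest of all. The fold change was -1.11 on the log2 scale with an SE of 0.255, which is 46.2% of the WT level. The raw counts behind these values were 139, 156 and 147 in WT and 30, 67 and 70 in DKO. Counting error alone gives exact 95% Poisson intervals of 106 to 167 normalized counts over the WT libraries and 26.6 to 93.9 over the DKO libraries, and these intervals leave out the spread between mice.

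Col4a4, the partner of Col4a3 on the other strand, had 629, 654 and 542 normalized counts in WT and 291, 314 and 448 in DKO. The groups again did not overlap, and DKO replicate 3 was the highest of the DKO libraries. Its fold change was -0.79 on the log2 scale (SE 0.186), or 57.8% of WT. In normalized counts DKO replicate 1 was the lowest library for both genes, but the order of the others differed, with replicate 3 second highest in DKO for Col4a3 and highest for Col4a4.

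Together Col4a3 and Col4a4 reached 14.5, 15.4 and 12.8 TPM in WT and 6.91, 6.44 and 10.2 TPM in DKO. Their share of the family's TPM was 2.11% to 2.55% over the WT libraries and 0.943% to 1.78% over the DKO libraries, again without overlap. Their ratio to each other was less separated. Col4a3 over Col4a4 was 0.24, 0.215 and 0.247 in WT and 0.145, 0.25 and 0.166 in DKO, so that DKO replicate 2 lay above all WT libraries and the other DKO libraries below them.

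Col4a1, which encodes the chain found in duplicate in α1α1α2, had 12024, 12545 and 12844 normalized counts in WT and 14545, 14991 and 11470 in DKO. The DKO libraries lay on both sides of the WT range, with replicate 3 lowest of all 6, and the fold change was 0.13 on the log2 scale (SE 0.144). Col4a2 had 6973, 7324 and 7164 normalized counts in WT and 7891, 9685 and 6636 in DKO. It showed the same arrangement, DKO replicates 1 and 2 above WT and replicate 3 below, with a log2 fold change of 0.17 (SE 0.154). The spread among the DKO libraries was larger than among WT for both, with an SD of 1917 against 415 for Col4a1 and of 1532 against 176 for Col4a2.

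Col4a5, the chain common to the α3α4α5 and α5α5α6 trimers, had 589, 671 and 660 normalized counts in WT and 645, 609 and 697 in DKO. Group means were 640 ± 44.2 and 650 ± 44.2 (SD, n = 3), and the log2 fold change was 0.02 (SE 0.132). Col4a6 had 483, 480 and 401 normalized counts in WT and 440, 509 and 575 in DKO, with a log2 fold change of 0.16 (SE 0.155). Both X-linked genes therefore overlapped between the groups. In normalized counts, the library with high Xist was the lowest for Col4a5 in WT and the highest in DKO. For Col4a6 it was the highest in both groups, though in WT only by 483 against 480. In TPM, WT replicate 2 lay above that library, WT replicate 1, for Col4a6 (12.4 against 12). The part of the Xist split in the values was not tested.

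**Figure D2:**
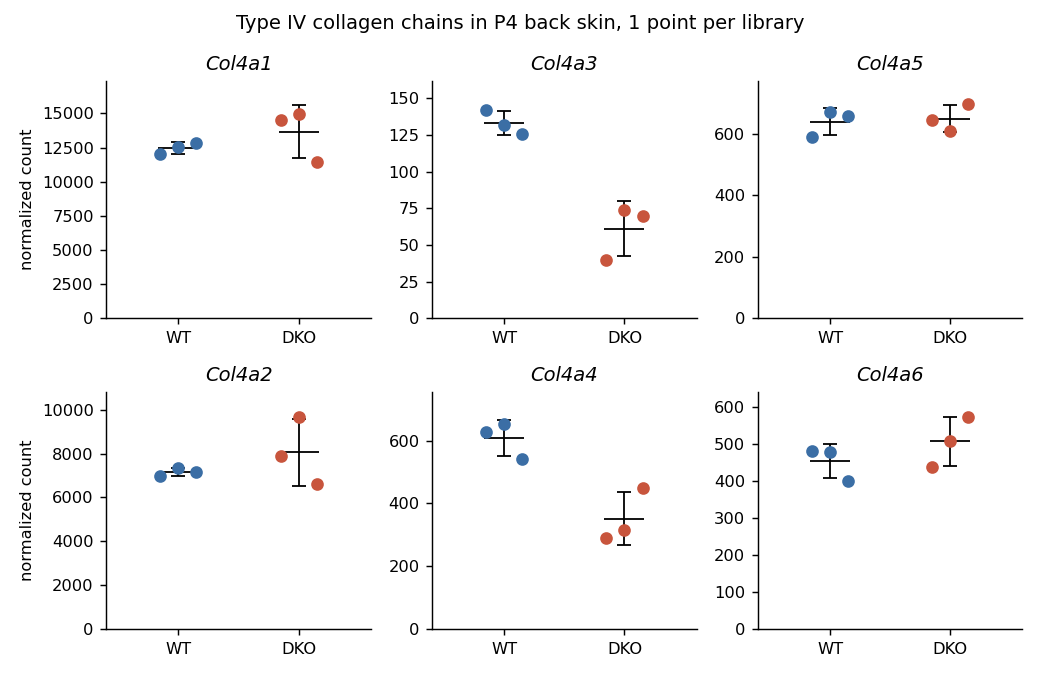
Normalized counts of the 6 chains, with each head-to-head pair in a column, linear axes from 0, 1 point per library (3 WT, 3 DKO), and black bars for mean and SD. Only in the panels of Col4a3 and Col4a4 do all DKO points lie below all WT points.

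Read with the threshold of the study, an adjusted p under 0.05 in edgeR's quasi-likelihood test with an absolute log2 fold change over 1, 0 of the 6 chains were called, against 0.0694% of all 20168 genes (8 higher and 6 lower in DKO). At an unadjusted p under 0.05, 2 of the 6 passed, Col4a3 and Col4a4, against 7.5% of all genes. The groups did not overlap for the same 2 of 6, against 13.2% of all genes. DESeq2, the tool of the study's methods, called 1 of the 6, Col4a3, against 0.732% of 20617 genes. Since the lower counts of this pair were known when the genes were chosen, nothing is read from these counts. As a place among all genes, 0.699% of those tested had a lower log2 fold change than Col4a3 and 1.75% a lower one than Col4a4, with a median of 0.02 over all genes.

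Col4a3 and Col4a4 were lower within each title number, as had to follow from every DKO library lying below every WT library. The direction of their fits with a library left out followed from the same separation, so only the sizes are described. On the log2 scale Col4a3 differed by -1.62 between the 1 WT and 1 DKO library of the first number and by -0.91 between the 2 and 2 libraries of the second, and Col4a4 by -0.90 and -0.77. Col4a1, Col4a2 and Col4a6 differed by 0.09 to 0.18 within both numbers, and Col4a5 by -0.03 and 0.05. When each library was left out in turn, the fold change of Col4a3 was between -1.26 (without DKO replicate 2) and -0.91 (without DKO replicate 1) and that of Col4a4 between -1.01 (without DKO replicate 3) and -0.68 (without DKO replicate 1). That of Col4a5 changed sign, from -0.04 to 0.07.

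**Figure D3:**
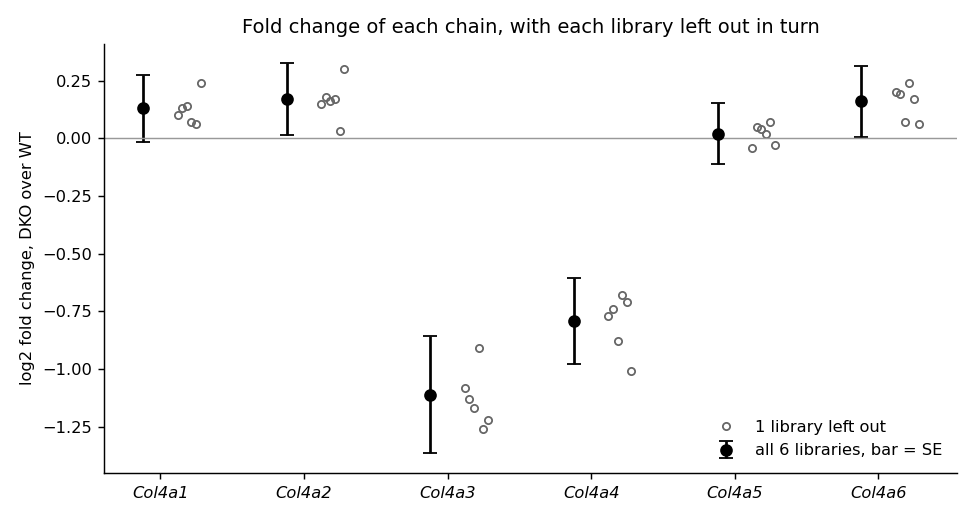
Log2 fold change of DKO over WT for each chain; filled points are fits of all 6 libraries with the SE as a bar, and open points are the 6 fits that each leave out 1 library. Col4a3 stays at or below -0.91 and Col4a4 at or below -0.68, while the open points of the other 4 chains lie between -0.04 and 0.30.

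How the members varied together was described over the 6 libraries, which are few and share the group difference. The log2 CPM of Col4a1 and Col4a2 had a Pearson correlation of 0.90, and 0.88 once each group's mean was removed. Col4a3 and Col4a4 correlated at 0.91, which fell to 0.57 without the group means. Col4a5 and Col4a6 correlated at 0.16 and 0.10. Across pairs, Col4a4 and Col4a6 correlated at -0.07, and at 0.90 without the group means, while Col4a1 and Col4a4 correlated at -0.77 and -0.92. These are descriptions of 6 points, and the libraries also share depth and the composition of the tissue sample.

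The genes most like each pair were taken from those with a mean normalized count of at least 100. Entpd3, an ectonucleotidase, came first for the mean of Col4a3 and Col4a4 (r = 0.992), with 168, 155 and 151 normalized counts in WT and 72.3, 104 and 108 in DKO. The next were Rnd3, a small GTPase (r = 0.990), with 1831 to 2019 in WT and 1405 to 1667 in DKO, and Nipal2 (r = 0.988), with 947 to 977 in WT and 699 to 846 in DKO. These 3 genes were lower in every DKO library than in any WT library. They were picked for likeness over these same 6 libraries, group difference included, so nothing is read from this separation. For Col4a1 and Col4a2 they were Nol4l (r = 0.998), Evc (r = 0.997), a protein of the primary cilium, and Cul7 (r = 0.996), a cullin. For Col4a5 and Col4a6 they were Nup54 (r = 0.981), a nuclear pore protein, Gm44401 (r = 0.973) and Magi2 (r = 0.972), a scaffold protein. As a measure of how many genes were this alike, 221 of 12329 genes compared had a correlation over 0.9 with the pair Col4a3 and Col4a4, 371 of 12328 with Col4a1 and Col4a2, and 37 of 12328 with Col4a5 and Col4a6.

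The genes around each pair, up to 500 kb from it, were described by position. Of 15 tested genes around Col4a3 and Col4a4, 0 were called, and the median log2 fold change was -0.18. On the side of Col4a4, Rhbdd1, a rhomboid protease, and Irs1, an insulin receptor substrate, had log2 fold changes of 0.18 and 0.31. On the side of Col4a3, Mff, a mitochondrial fission factor, stood at -0.15 and Agfg1 at -0.18. The only tested genes above 0 on this side, named here for their direction, were Tm4sf20 and Ccl20. Tm4sf20 had 20 against 29 normalized counts (0.55) and Ccl20 had 21 against 41 (1.00), both with overlap. Farther on this side, 2 genes had groups without overlap, both lower in DKO, out of the 15, a share near the 13.2% of all genes. They were Slc19a3, a thiamine transporter (39 against 18 normalized counts, log2 fold change -1.11), and Krtap28-13, a keratin-associated protein gene (765 against 473, -0.69), and they were picked after their values were seen. Of 13 tested genes around Col4a1 and Col4a2, 0 were called and 3 had groups without overlap, 2 of them lower in DKO, beside 13.2% of all genes. Of 6 around Col4a5 and Col4a6, 0 were called and 0 had groups without overlap. Around all 3 pairs, the genes had a log2 fold change range of -1.25 to 1.00.

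**Figure D4:**
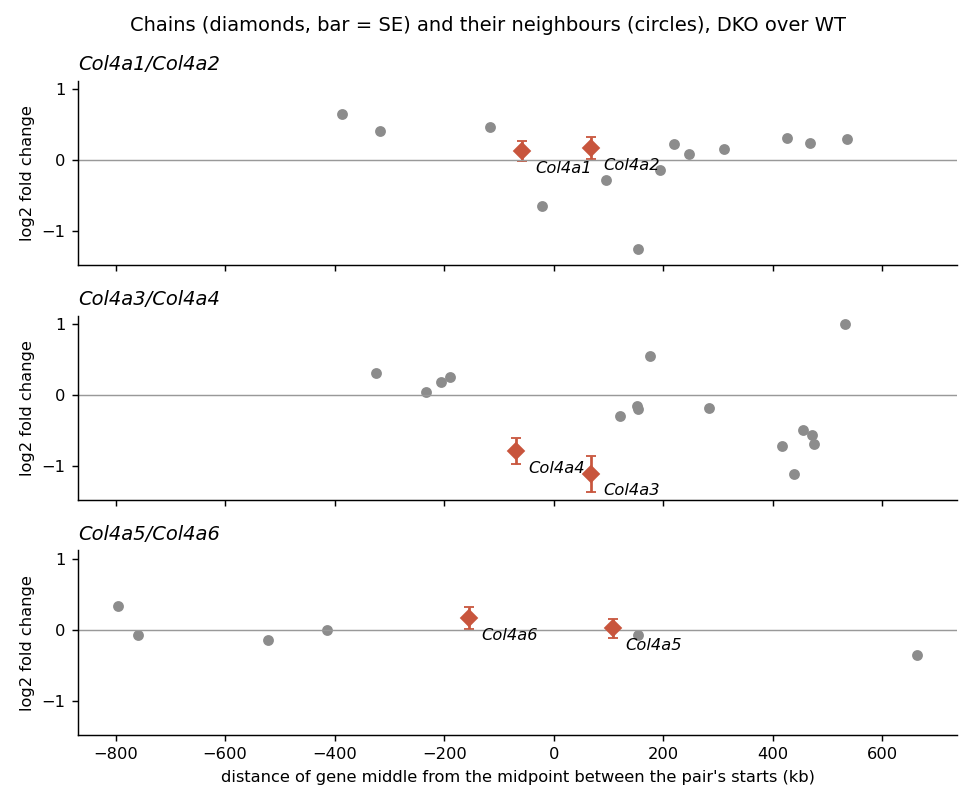
Log2 fold change of DKO over WT for the chains (red diamonds, bar for the SE) and the other tested genes within 500 kb (grey circles), by distance in kb of the gene's middle from the midpoint between the pair's starts. Beside Col4a4 and Col4a3, Rhbdd1 lies at 0.18 and Mff at -0.15. Farther out on the Col4a3 side, Slc19a3 lies at -1.11 and Ccl20 at 1.00.

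The antisense gene C430014B12Rik shares 563 bases, or 5.65%, of the counted exons of Col4a3. It had 7 to 24 raw counts per library, and whether the counting used the strand is not given in the sources used here, so these reads and those of Col4a3 cannot be told apart there. Col4a2 shares 43 bases with Gm15419, which had 14 to 44 raw counts, and the 22 bases shared by Col4a1 and Col4a2 are 0.295% and 0.332% of their lengths.

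The laminins and linkers to which collagen IV binds were given by a list of 30 genes, all tested, of which 29 had a log2 fold change above 0 in DKO, with a median of 0.21, while 52.9% of all genes were above 0. None was called (0.0694% of all genes), 9 had an unadjusted p under 0.05, all higher, and 12 had groups without overlap, all higher, against 7.5% and 13.2% of all genes. The lowest p belonged to Lamc3, a laminin γ chain, with 569, 581 and 499 normalized counts in WT and 789, 933 and 664 in DKO (log2 fold change 0.53, SE 0.158, edgeR adjusted p = 0.37). Npnt, nephronectin, a ligand of integrin α8β1, had 581, 592 and 666 in WT and 940, 782 and 788 in DKO (0.45, SE 0.138, edgeR adjusted p = 0.407). Egflam, pikachurin, a ligand of dystroglycan, stood at 0.49 (SE 0.155, edgeR adjusted p = 0.423). Each was higher in 3 of 3 DKO libraries than in any WT library, and none passed the adjusted threshold. Nid1, a nidogen that bridges laminin and collagen IV, stood at 0.43, and Hspg2, the proteoglycan perlecan, at 0.45, while Nid2 was the only gene of the list below 0, at -0.05. Marker lists of dermal cells and muscle also had most genes above 0, with 14 of 15 dermal fibroblast genes (median 0.36) and 22 of 24 skeletal muscle genes (median 0.89). So did the lists of basal keratinocytes and of nerve and Schwann cells, with 11 of 12 each (medians 0.12 and 0.23). The hair follicle and sebaceous gland lists had 2 of 16 each above 0. The part of these cell types in the values of the laminins and linkers was not tested.

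The enzymes and carriers that fold, export and cross-link collagen IV were given by 25 genes, of which 21 had a log2 fold change above 0, with a median of 0.21. None was called (0.0694% of all genes), 1 had an unadjusted p under 0.05 (7.5% of all genes) and 0 had groups without overlap (13.2% of all genes). That gene, Loxl2, a lysyl oxidase that cross-links the 7S domain, had 1273, 1331 and 1578 normalized counts in WT and 2190, 1562 and 1646 in DKO (log2 fold change 0.37, SE 0.16, edgeR adjusted p = 0.648). Plod1, a lysyl hydroxylase, stood at 0.35 and Loxl4 at 0.34 (edgeR adjusted p = 0.76 for both). Pxdn, the peroxidase that forms the sulfilimine bond of the network, stood at 0.15, and Serpinh1, the collagen chaperone HSP47, at 0.21.

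Of 12 collagen receptor genes 10 were tested, 6 of them with a log2 fold change above 0, with a median of 0.06, 0 with an unadjusted p under 0.05 and 0 called. Itga1, the integrin α1 chain that binds collagen IV, had 1323, 1350 and 1160 normalized counts in WT and 1077, 963 and 1135 in DKO, without overlap (log2 fold change -0.27, SE 0.13, edgeR adjusted p = 0.708). Adgrg6, an adhesion receptor for collagen IV, stood at -0.31 (edgeR adjusted p = 0.685) and Ddr2, a collagen receptor kinase, at 0.37 (edgeR adjusted p = 0.722), both with overlap. Itga10, another collagen-binding integrin chain, was without overlap and higher in DKO (0.48, edgeR adjusted p = 0.811). These were 2 of the 10 tested receptor genes, 1 lower and 1 higher, against 13.2% of all genes without overlap, so nothing is read from them. Of 12 genes for collagenases and their inhibitors 8 were tested, 7 of them above 0, with a median of 0.34, 2 with an unadjusted p under 0.05 (7.5% of all genes) and 0 called. Mmp2, gelatinase A, had 2246, 2187 and 2274 normalized counts in WT and 2822, 3251 and 2655 in DKO (0.38, SE 0.122, edgeR adjusted p = 0.429). Timp1, an inhibitor of these enzymes, had 18.3, 23.8 and 18.8 in WT and 40.8, 36.4 and 30.9 in DKO (0.81, SE 0.308, edgeR adjusted p = 0.539). Mmp9, gelatinase B, had 7.13, 11 and 9.41 in WT and 27.6, 21 and 8.96 in DKO (1.02, SE 0.487, edgeR adjusted p = 0.712). The groups did not overlap for 3 of the 8 tested genes, against 13.2% of all genes. These were Mmp2, Timp1 and Mmp14, a membrane-bound collagenase (log2 fold change 0.31, edgeR adjusted p = 0.749), all higher in DKO. The groups overlapped for Mmp9.

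Of 10 marker lists for cell types of the skin, 3 had summed levels without overlap between the groups. In the edgeR fit no gene of the 10 lists was called, beside 0.0694% of all genes. Scd1, of the sebaceous gland list, had a log2 fold change of -1.31 in that fit (edgeR adjusted p = 0.0617). Calls by DESeq2 are not given here for these lists. The paper names Scd1 among the genes downregulated in this skin. In bulk skin, fewer cells of a type and less RNA per cell cannot be told apart. The summed TPM of 16 hair follicle genes was 15294 to 17382 in WT and 7106 to 13538 in DKO, and 14 of the 16 had a log2 fold change below 0 (median -0.27). That of 16 sebaceous gland genes was 2100 to 2412 in WT and 1224 to 1573 in DKO, with 14 of 16 below 0 (median -0.67). That of 24 skeletal muscle genes was 2660 to 2944 in WT and 4264 to 9328 in DKO, with 22 of 24 above 0 (median 0.89). All 3 sums were without overlap. Abundant genes weighed most in them: in the hair follicle list Krt71 had means of 5281 TPM in WT and 3088 in DKO, and in the sebaceous gland list Scd1 had 942 and 372. Singly, 4 of the 16 hair follicle, 8 of the 16 sebaceous gland and 17 of the 24 skeletal muscle genes were without overlap, against 13.2% of all genes. DKO replicate 1 had the lowest hair follicle and sebaceous gland sums and the highest skeletal muscle sum. On the same TPM scale it was lowest for Col4a3 (0.873, against 1.29 and 1.45 in DKO replicates 2 and 3), while DKO replicate 2 was lowest for Col4a4 (5.15, against 6.04 in replicate 1 and 8.75 in replicate 3). The part of these cell types in the lower counts of Col4a3 and Col4a4 was not tested.

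The remaining marker lists overlapped between the groups. Basal keratinocyte genes, of the cells in which K14Cre acts, summed to 4066 to 4440 TPM in WT and 3948 to 5506 in DKO, with 11 of 12 above 0 (median 0.12). Endothelial genes summed to 297 to 325 TPM in WT and 292 to 435 in DKO, those of pericytes and smooth muscle to 587 to 653 and 622 to 825, and those of dermal fibroblasts to 6957 to 8867 and 8311 to 10970. In the pericyte and smooth muscle list, 10 genes were above 0 and 2 below (median 0.19). Des weighed on its sum, with means of 45.8 TPM in WT and 114 in DKO (log2 fold change 1.30). Sums for adipocytes, dermal papilla, and nerve and Schwann cells overlapped as well. In TPM, DKO replicate 1 was the highest and DKO replicate 3 the lowest of the DKO libraries for Col4a1 and Col4a2, and the sums of the endothelial, pericyte, dermal fibroblast and adipocyte lists and of the laminins and linkers had the same order. In normalized counts, DKO replicate 2 was instead the highest for Col4a1 (14991, against 14545 in replicate 1) and Col4a2 (9685 against 7891). The order of these chains thus depended on the scaling, and the part of these cell types in it was not tested. No marker of these 10 lists was under 0.5 TPM in all libraries. Computing library sizes without the skeletal muscle list gave log2 fold changes of -1.13 for Col4a3 and 0.12 for Col4a1.

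**Figure D5:**
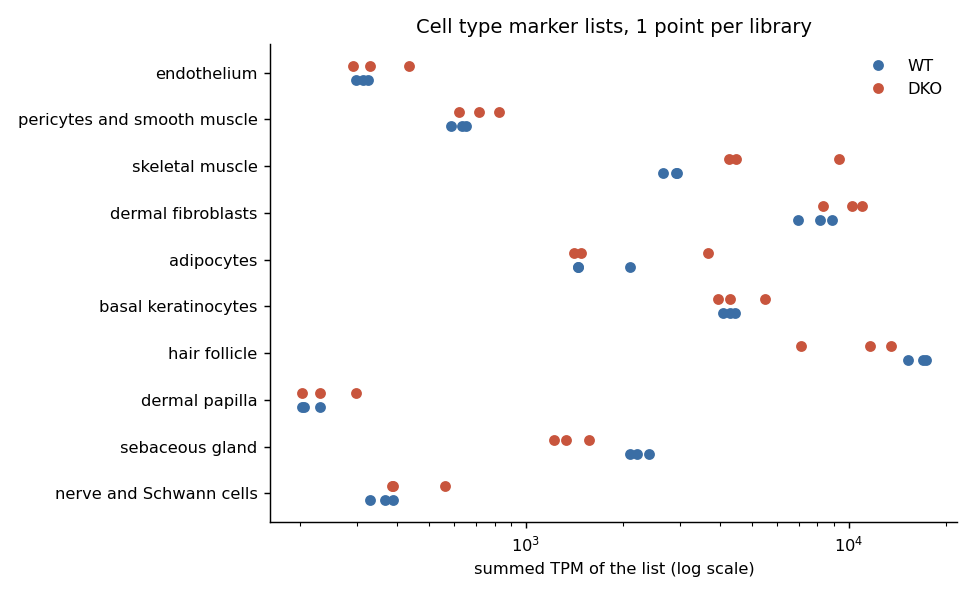
Summed TPM of each cell type marker list on a log axis, with 1 point per library, blue for WT and red for DKO. Hair follicle and sebaceous gland sums are lower and skeletal muscle sums higher in all 3 DKO libraries, and the other lists overlap.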

How the data were processed

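The authors depleted rRNA, sequenced paired reads (NEBNext Ultra II, NovaSeq), trimmed with Trimmomatic 0.36, mapped to GRCm38 with STAR 2.5.2b and counted on genes with featureCounts (Subread 1.5.2), per the labels. The deposited values are counts per gene, not normalized. Strand use and multi-mapping reads are not given in the sources used here. Nothing says whether libraries differ in more than the mouse, so p-values cover the spread between these samples. The 7 epidermis libraries held a count of 0 for all genes and were not used. Symbols matched 99.3% of identifiers.

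Counts were analysed with edgeR 4.0.16 (R 4.3.3): filterByExpr, TMM, quasi-likelihood F test of 3 DKO against 3 WT, Benjamini-Hochberg over 20168 genes. A gene was called where the adjusted p was under 0.05 and the log2 fold change was above 1 or below -1. Normalized counts are scaled to the mean effective library size. TPM used merged exon lengths, and log2 CPM a prior count of 2. DESeq2 1.42.0 was an alternative. Both were tested on simulated data. The alternatives were other scalings and filters, the title number as a block, and each library left out. The genes named are all chains, the 3 of lowest p in each partner list (with Mmp14 and Itga10, added after their values were seen) and the 3 most like each pair. Nidogen, perlecan, Pxdn and Serpinh1 genes were named for function, and neighbours for position or, where stated, for their values. In the folding list, Tango1 is another name of Mia3. The members and lists were chosen with earlier results of these data known.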

Additional observations from a re-analysis of the deposited data

How the results depend on the processing

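The lower log2 fold change of the pair Col4a3 and Col4a4 kept its direction under every alternative run, and none of the partner genes was called under any. With a library left out or the title number as a block, that direction had to follow from the groups not overlapping, so it adds no support. The count of chains called was 0, and 1 (Col4a3) with DESeq2 and with no filter on low counts. Over all genes 14 were called, against 151 with DESeq2, 22 with total counts, 210 with no filter and 35 with the title number as a replicate block, and between 2 (without WT replicate 2 or without WT replicate 3) and 36 (without DKO replicate 1) when 1 library was left out, with 3 without WT replicate 1, 4 without DKO replicate 3 and 33 without DKO replicate 2. The cause was not tested. Deviations of same-numbered WT and DKO libraries from their group means correlated at -0.02 to 0.23 and those of different-numbered libraries at -0.15 to -0.10. Every same-numbered pair thus lay above every different-numbered one, and what this comes from was not tested. The main fit did not pair the libraries, because the labels do not say what the number marks. The block changed no call of a chain. The share of Col4a1 and Col4a2 in WT was 92.5% per length and 91.4% when counts were not divided by length. With 3 libraries a group, an exact permutation test could not go below p = 0.1, and Col4a3 rests on 30 to 156 counts per library.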
